A study of Mus musculus with 4 samples.

Results

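The insulin-like growth factor (IGF) family was examined in the e10.5 mouse heart, in tissue of the atrioventricular canal (AVC). This is the stretch that joins atria and ventricles in the embryo, where the endocardial cushions and part of the conduction system form. The genes followed were Igf1, Igf2, Igf1r, Igf2r and Igfbp2 to Igfbp7, taken as every non-control probe that carries one of these names in the array files. They make up 10 of the 19093 genes that passed the filter on dim probes, and are represented by 17 probes, all well above background and unsaturated in all 8 RNA pools. The family was chosen by its measured log2 ratios, because Igfbp3 was higher and Igfbp5 was lower in the mutant on arrays 1, 3 and 4, so its mutant-to-control ratios are given as descriptions, and counts of members past a threshold are printed beside those of all genes with nothing drawn from them.

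The mutant pools came from embryos labelled Tbx3 mutant, described in the series title as hypomorphic (reduced function), and the control pools from embryos labelled wild type. Tbx3 is a T-box transcription repressor of the AVC and conduction system. Embryos of both genotypes were at e10.5 on a background of equal parts Sv129 and C57Bl6, and tissue from 5 hearts was pooled for each sample. The labels used here do not name the Tbx3 alleles. Each of 4 arrays carried 1 mutant pool in red (Cy5) and 1 control pool in green (Cy3), all on 1 slide in 1 scan. With the dyes never swapped, a dye effect on a probe and an effect of genotype cannot be told apart, and in pooled tissue neither can fewer cells of a type and less RNA per cell.

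IGF1 and IGF2 are secreted growth factors that signal through the IGF1 receptor tyrosine kinase, whereas the IGF2 receptor mainly carries IGF2 to lysosomes and so removes it. The binding proteins hold IGFs outside the cell, where they limit or prolong access to the receptor, and several have actions of their own. In the embryonic heart, IGF2 is known as a mitogen for cardiomyocytes of the ventricular wall.

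The probes that carry most of the observations below are shown by the first 30 of their 60 bases, in lower case and 5′ to 3′, as the array files give them, with positions in mouse build mm7. Their place within the transcripts is not given, since mm7 gene models were not used here. The Igfbp3 and Igfbp5 pairs are shown because the agreement between probes of a gene bears on the values, Igfbp2 as the neighbour of Igfbp5, and Igfbp7 and Igf1 because control pool 2 set them apart on array 2.
Igfbp3, brighter probe, chr11:7158599-7158658, minus strand: gcagttttccaaaaacacagatttcttttc
Igfbp3, dimmer probe, chr11:7160474-7161483, minus strand: tctataagaagaaacgatgccgcccttcca
Igfbp5, brighter probe, chr1:73100116-73100175, minus strand: cacatcacatattactgtagctctctatag
Igfbp5, dimmer probe, chr1:73102653-73102712, minus strand: aatagaattttccttggtgtctcccatcta
Igfbp2, chr1:73093964-73094023, plus strand: catctcttctacaacgagcagcaggagact
Igfbp7, chr5:77280659-77280718, minus strand: taacccactaacactttattacagccagct
Igf1, brighter probe, chr10:87471884-87471943, plus strand: tggatgagtgttgcttccggagctgtgatc
Over their full 60 bases, probes of different family members shared runs of at most 10 bases. The dimmer Igfbp3 probe spans 1010 bases in the files, more than its own length.

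The log2 ratio of mutant over control is used throughout, so a positive ratio is a higher signal in the mutant. Tbx3 itself had log2 ratios of -1.35, -1.40, -1.43 and -1.21 on arrays 1 to 4 (mean -1.35 ± 0.10, SD, n = 4; limma adjusted p = 0.0454), lower in 4 of 4 pairs. The call was lost without array 1, 3 or 4 (limma adjusted p = 0.347, 0.603 and 0.51). Array 2 stood apart from the others over all genes. Across genes, which are not independent replicates, its log2 ratios correlated at 0.07, -0.06 and -0.02 with those of arrays 1, 3 and 4, whereas arrays 3 and 4 correlated at 0.66, arrays 1 and 4 at 0.35 and arrays 1 and 3 at 0.25. The family's ratios are therefore given per array, with means over 4 arrays and without array 2 for the probe that stands for each gene.

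Several markers of other tissues, and part of the cushion mesenchyme list, were high in control pool 2. Of 10 uterus and decidua markers, 8 were above background in control pool 2 and 4 to 7 in each other pool. Their summed normalised signal, on a linear scale, was 1696 to 8892 in the mutant pools, against 21880 in control pool 2 and 1853 to 3640 in the other control pools. The sum of 8892 was that of mutant pool 3. Hoxa11 stood at a log2 level of 13.10 in control pool 2. It was at 6.41 to 8.62 in mutant pools and 6.08 to 7.01 in the other control pools. Prl8a2 and Prap1 were instead highest in mutant pool 3, at log2 levels of 11.27 and 12.36. They stood at 10.26 and 12.09 in control pool 2. Oxtr was not well above background in any pool. The 5 leukocyte markers summed to 7117 to 9777 in mutant pools, against 38650 in control pool 2 and 9055 to 12020 in the other control pools. The 6 cushion mesenchyme markers summed to 80740 to 85510 in mutant pools, against 496200 in control pool 2 and 103600 to 105600 in the other control pools. Of these, Col1a1 and Col3a1 stood at log2 levels of 18.12 and 17.17 in control pool 2. They were at 14.88 to 15.25 and 14.85 to 15.00 in the other control pools. Postn (15.34) and Prrx1 (9.20) were also highest there among control pools. Sox9 and Twist1 were not raised, at 13.34 and 13.48, against 13.11 to 13.76 and 13.51 to 13.74 in the other control pools. The cushion list had median log2 ratios of -0.29, -1.22, -0.52 and -0.40 on arrays 1 to 4. Of its 6 genes, 0 had a positive mean. Postn fell without array 2 (limma adjusted p = 0.0496, against 0.201 on 4 arrays). The part of these signals in the family's ratios, on array 2 or on the others, was not tested. All 5 cardiac muscle and all 6 AVC myocardium markers were above background in every pool. The muscle markers summed to 533600 to 634700 in mutant pools, against 304400 to 430500 in control pools, with a median log2 ratio of 0.57 (0.35 without array 2) and 4 of 5 positive. Myl7, a myosin light chain, rose without array 2 (limma adjusted p = 0.0447, against 0.118 on 4 arrays). The 4 erythroid markers summed to 679900 to 1031000 in mutant pools, against 235400 to 626700 in control pools, with median log2 ratios of 2.08, 1.10, -0.10 and 0.15 on arrays 1 to 4. Tnnt2, Myl7 and Actc1 of the muscle list and Hba-x, Hbb-bh1 and Hbb-y of the erythroid list had mean log2 intensities above 16. Genes that bright had median log2 ratios of 0.43, 0.32, 0.33 and 0.27 on arrays 1 to 4. The part of brightness in the ratios of these markers was not tested. Nor was the part of muscle and erythroid signal in the family's ratios.

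**Figure D1:**
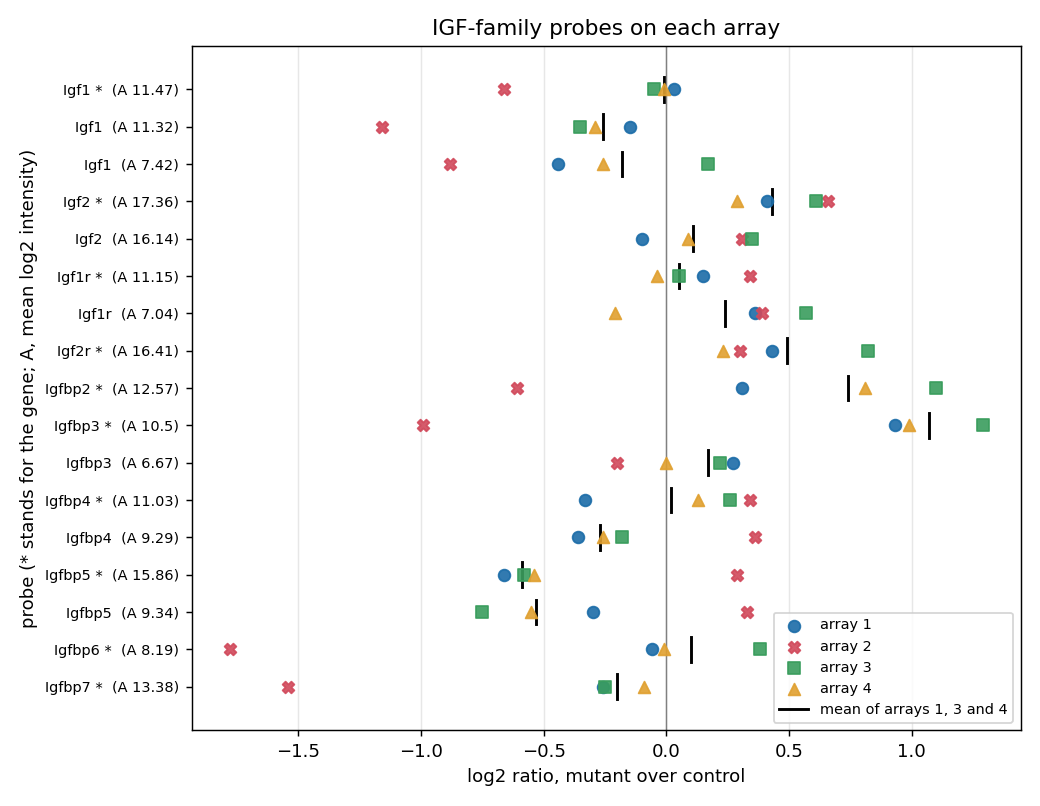
Log2 ratio of mutant over control (x axis) for each of the 17 probes of the family (rows), with 1 symbol per array and a black bar at the mean of arrays 1, 3 and 4; A is the mean log2 intensity of a probe and an asterisk marks the probe that stands for its gene. The bright Igfbp3 probe lies at 0.93 to 1.29 on arrays 1, 3 and 4 and at -0.99 on array 2, and both Igfbp5 probes lie below 0 on arrays 1, 3 and 4 and above 0 on array 2.

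Among the binding proteins, Igfbp3 was higher and Igfbp5 lower in the mutant on arrays 1, 3 and 4, and array 2 had the opposite sign for both. Without array 2 the mean ratio corresponded to 2.1-fold for Igfbp3 and to 0.664-fold for Igfbp5. With median centring in place of loess the mean Igfbp5 ratio was positive. Igfbp2 shared the signs of Igfbp3, Igfbp7 was lower on all 4 arrays, and the other binding proteins had no common direction. The same sign on all 4 arrays, also seen for Igf2 and Igf2r below, was found for 24.9% of all genes. The ratios of the binding proteins, 2 of which led to the choice of the family, are described gene by gene below.

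IGFBP3 is the main IGF carrier of adult serum. The bright Igfbp3 probe had normalised log2 levels of 11.03, 10.38, 10.99 and 10.75 in mutant pools 1 to 4, against 10.10, 11.37, 9.70 and 9.76 in control pools 1 to 4. Mutant pools 1, 3 and 4 lay above control pools 1, 3 and 4, while control pool 2 was the highest of the 8 and mutant pool 2 the lowest mutant pool. The log2 ratios were 0.93, -0.99, 1.29 and 0.99, with a mean of 0.56 ± 1.04 (SD, n = 4) and of 1.07 ± 0.19 without array 2 (n = 3). Control pool 2 was 2.86-fold above the mean of the other control pools, and mutant pool 2 was at 0.687 of the mean of the other mutant pools. The ratio on arrays 1, 3 and 4 exceeded that of 98.7, 99.6 and 99.7% of genes, and on array 2 that of 3.59%.

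The dim Igfbp3 probe gave a smaller difference. Its log2 ratios were 0.27, -0.20, 0.22 and 0.00, at log2 levels of 6.58 to 6.78 in mutant pools and 6.51 to 6.78 in control pools. An added offset of 50 pulls ratios of dim probes towards 0, and the processed signals of the scanner software, which have no such offset, gave 0.85, -0.22, 0.69 and -0.02 for it. On array 4, where the bright probe stood at 0.99, the dim probe showed no difference by either route. Averaging both probes lowered the Igfbp3 mean to 0.31, or 0.62 without array 2.

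IGFBP5 is a secreted binding protein that also attaches to extracellular matrix. Its bright probe had log2 levels of 15.36, 16.21, 15.53 and 15.61 in mutant pools, against 16.02, 15.93, 16.11 and 16.15 in control pools. Mutant pools 1, 3 and 4 were below every control pool, and mutant pool 2 was above every control pool. The 4 control pools spread over only 0.22 on this scale, so the departure of array 2 lay in its mutant pool, unlike that of Igfbp3, where control pool 2 moved most. The log2 ratios were -0.66, 0.29, -0.58 and -0.54, with a mean of -0.37 ± 0.44 (SD, n = 4) and of -0.59 ± 0.06 without array 2 (n = 3). The dim Igfbp5 probe gave -0.30, 0.33, -0.75 and -0.55, the same sign as the bright probe on each array. With each array centred on its median in place of loess, the Igfbp5 mean was 0.34 instead, and 0.10 without array 2. The direction on arrays 1, 3 and 4 thus depended on the normalisation. That setting also placed the median of all genes at 0.228, or 0.201 without array 2. Bright genes moved further than that median. Grb10 and Rheb, with mean log2 intensities of 15.95 and 15.24 against 15.86 for Igfbp5, both went from -0.03 to 0.69 and 0.62. The cause of the shift was not tested.

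Igfbp2 encodes a binding protein with a preference for IGF2 and is widely expressed in embryos. Its log2 levels were 12.65, 12.44, 13.14 and 12.87 in mutant pools, against 12.34, 13.05, 12.04 and 12.06 in control pools. Without array 2 the groups did not overlap, and control pool 2 lay above all but mutant pool 3. The log2 ratios were 0.31, -0.61, 1.10 and 0.81, with a mean of 0.40 ± 0.75 (SD, n = 4) and of 0.74 ± 0.40 without array 2 (n = 3). Igfbp2 and Igfbp5 are direct neighbours on chromosome 1, transcribed from opposite strands, with 6092 bases between the probes shown in mm7. Their ratios had opposite signs on each of the 4 arrays.

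Igfbp7 encodes a secreted protein of vessels and matrix that binds IGFs with low affinity. Its log2 levels were 12.81, 13.36, 13.20 and 13.09 in mutant pools, against 13.07, 14.90, 13.45 and 13.18 in control pools. Control pool 2 was 3.17-fold above the mean of the other control pools, and the remaining pools of both groups overlapped. The log2 ratios were -0.26, -1.54, -0.25 and -0.09, negative on 4 of 4 arrays, with a mean of -0.54 ± 0.67 (SD, n = 4) and of -0.20 ± 0.09 without array 2 (n = 3).

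Igfbp6, whose protein binds IGF2 in preference to IGF1, was close to the dim end of the scale in 6 pools and high in the pair on array 2. The mean spot signals were 112.0, 4212, 143.7 and 103.3 in mutant pools, against 72.63, 6871, 68.31 and 70.51 in control pools, before background subtraction. After normalisation, control pool 2 stood 90.4-fold above the mean of the other control pools and mutant pool 2 stood 24.6-fold above the mean of the other mutant pools. Such a surplus of more than 4 log2 units was found for 80 of 41172 probes in control pool 2 and for 4 in mutant pool 2. The 4 were all high in both pools and belonged to Igfbp6, Dio3, Ly6c1 and Penk. The Igfbp6 log2 ratios were -0.06, -1.78, 0.38 and -0.01, with a mean of -0.37 ± 0.96 (SD, n = 4) and of 0.10 ± 0.24 without array 2 (n = 3).

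Igfbp4, whose product is cleaved by the protease PAPP-A, gave no common direction. The brighter of its probes had log2 ratios of -0.33, 0.34, 0.26 and 0.13 (mean 0.10 ± 0.30, SD, n = 4, and 0.02 ± 0.31 without array 2). The dimmer probe had -0.36, 0.36, -0.18 and -0.26. The probes disagreed in sign on arrays 3 and 4.

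**Figure D2:**
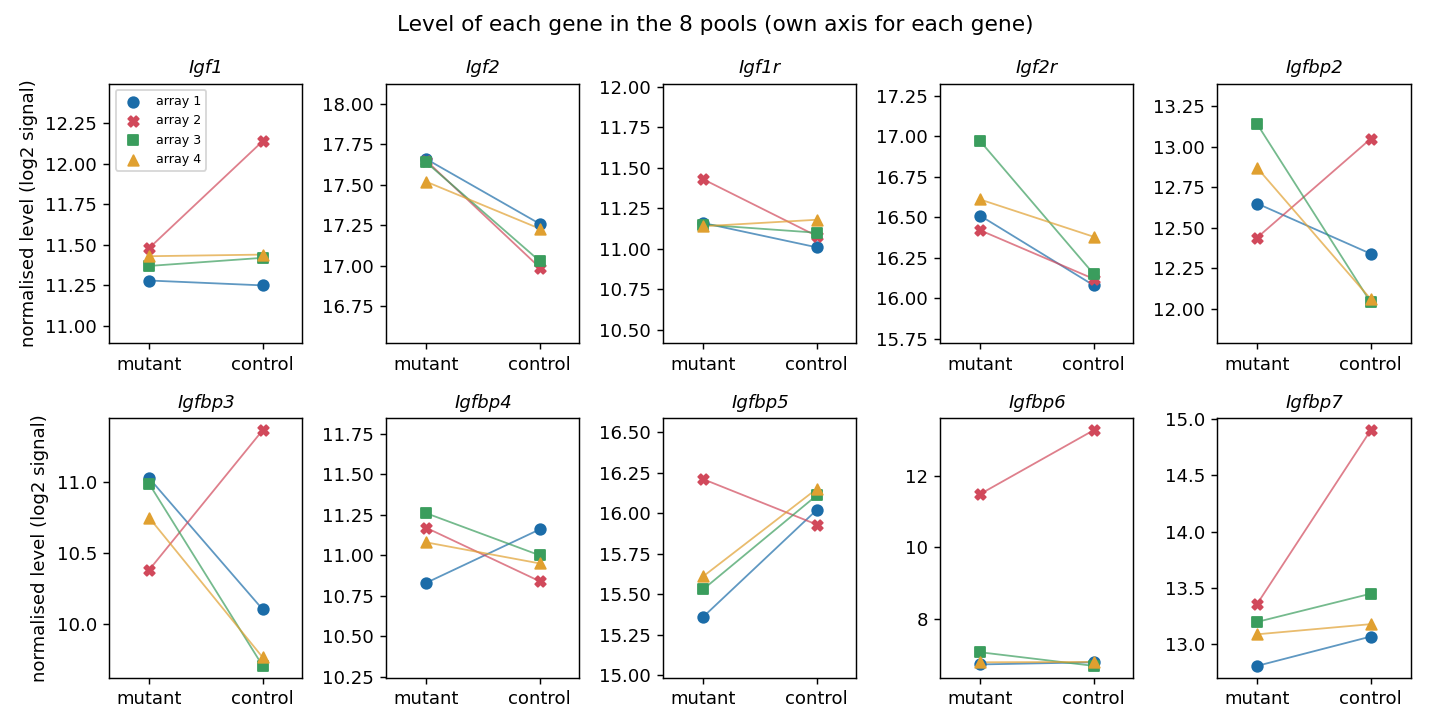
Normalised log2 level of each gene (y axis, own range for each gene) in the 4 mutant pools and the 4 control pools, with a line joining the pools of an array. Igfbp3 and Igfbp2 lines slope down from mutant to control on arrays 1, 3 and 4 and up on array 2, Igfbp5 lines slope the other way on each array, and both Igfbp6 pools of array 2 lie far above the rest.

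Of the ligands, each at its brightest probe, Igf2 gave slightly higher signals in the mutant on all 4 arrays and Igf1 gave no common difference outside array 2. Igf2 was among the brightest probes, with log2 levels of 17.66, 17.65, 17.64 and 17.52 in mutant pools, against 17.26, 16.99, 17.03 and 17.23 in control pools. The groups did not overlap. The log2 ratios were 0.41, 0.66, 0.61 and 0.29 (mean 0.49 ± 0.17, SD, n = 4, and 0.43 ± 0.16 without array 2), and 10 replicate spots of the probe on each array varied by SDs of 0.082, 0.068, 0.036 and 0.070.

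The Igf2 ratio moved with how brightness was treated. The 295 genes with a mean log2 intensity above 16 had median log2 ratios of 0.43, 0.32, 0.33 and 0.27 on arrays 1 to 4, against 0.41, 0.66, 0.61 and 0.29 for Igf2. With the processed signals of the scanner software, the Igf2 mean was 0.09, and with a running median over intensity removed it was -0.04. The second Igf2 probe gave log2 ratios of -0.10, 0.31, 0.35 and 0.09. The direction for Igf2 therefore flipped with the scaling and with the probe on array 1.

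Igf1 had log2 levels of 11.28, 11.48, 11.37 and 11.43 in mutant pools, against 11.25, 12.14, 11.42 and 11.44 in control pools at its brightest probe. All pools except control pool 2 lay within 0.23 of each other. The log2 ratios were 0.03, -0.66, -0.05 and -0.01, with a mean of -0.17 ± 0.33 (SD, n = 4) and of -0.01 ± 0.04 without array 2 (n = 3). A second probe, spotted 10 times on each array, had log2 ratios of -0.15, -1.16, -0.35 and -0.29, with SDs between spots of 0.018 to 0.037. That probe was thus below 0 on every array by more than its spot error, which measures spread within an array and not between pools. The brightest probe had 1 spot per array, so no spot error, and was not below 0 on array 1. The dimmest Igf1 probe gave -0.44, -0.88, 0.17 and -0.26.

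Of the receptors, Igf2r was higher in the mutant on 4 of 4 arrays and Igf1r differed little. Igf2r had log2 levels of 16.51, 16.42, 16.97 and 16.61 in mutant pools, against 16.08, 16.12, 16.15 and 16.38 in control pools, and the groups did not overlap. Its log2 ratios were 0.43, 0.30, 0.82 and 0.23 (mean 0.44 ± 0.26, SD, n = 4, and 0.49 ± 0.30 without array 2). Igf2r is also among the genes above 16, and its mean was 0.17 with the processed signals and 0.18 with the running median removed.

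Igf1r had log2 ratios of 0.15, 0.34, 0.05 and -0.04 (mean 0.13 ± 0.16, SD, n = 4, and 0.05 ± 0.10 without array 2). A dim second probe gave 0.36, 0.39, 0.57 and -0.21. A further 2 probes, which reach Igf1r only through a synonym and are outside the family's 17, gave means of 0.06 and 0.15 over 4 arrays. The levels of Igf1r at its brighter probe were 11.16, 11.43, 11.15 and 11.14 in mutant pools, against 11.01, 11.08, 11.10 and 11.18 in control pools, so the groups overlapped.

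Across the 4 arrays, 0 of the 10 family members passed an adjusted p of 0.05 (limma, Benjamini-Hochberg), where 0.00524% of all genes did, namely Tbx3 alone. At an unadjusted p under 0.05 the members were Igf2 and Igf2r, 2 of 10, against 14.5% of all genes. Igfbp3 and Igfbp5 on arrays 1, 3 and 4 are what the family was chosen by, so their place past the threshold without array 2 (2 of 10 members, against 1.02% of all genes) is no test. By direction, 1 member was higher against a background of 0.686%, and 1 was lower against 0.33%. At an unadjusted p under 0.05 without array 2, 6 of 10 members counted, against 23.2% of all genes. Nothing is read from these counts. The levels of the 4 mutant and 4 control pools did not overlap for Igf2 and Igf2r, 2 of 10, against 9.07% of all genes. Both were higher in the mutant (3.95% of all genes), and 0 were lower (5.12%). Over arrays 1, 3 and 4 the levels did not overlap for 5 of 10, against 25.9% of all genes, namely Igf2, Igf2r, Igfbp2 and Igfbp3 with the mutant higher (12.6% of all genes) and Igfbp5 with the mutant lower (13.3%). The median log2 ratio of the 10 genes was 0.11 on 4 arrays and 0.08 without array 2, against 0.001 and 0.01 over all genes.

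Array 2 had the opposite sign to arrays 1, 3 and 4 for 3 of the 6 members whose sign the other 3 arrays shared, namely Igfbp2, Igfbp3 and Igfbp5. Over all genes whose sign those arrays shared, this was so for 46.5% of 8886. These shares are close, with 6 members counted.

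**Figure D3:**
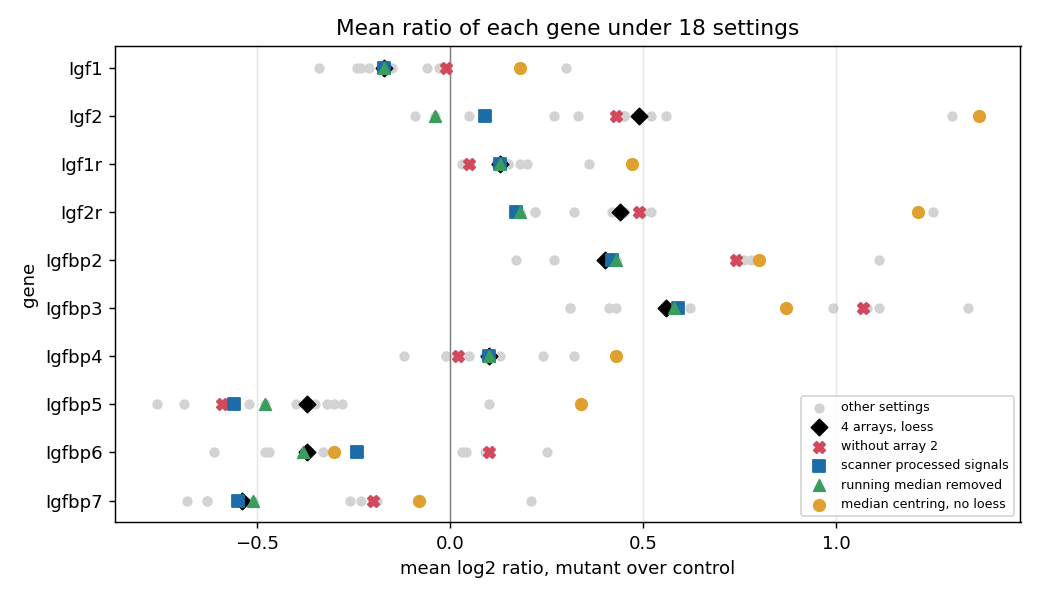
Mean log2 ratio of mutant over control (x axis) for each gene (rows) under 18 settings of normalisation, filtering, probe choice and arrays; coloured symbols mark 5 of them and grey points the rest. Igfbp3 stays above 0 throughout, Igfbp5 is below 0 except with median centring, and the Igf2 value reaches from below 0 to above 1.

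Genes known to be induced by low oxygen were higher in the mutant, as Igfbp3 was on arrays 1, 3 and 4. All 10 genes of that list had positive mean ratios, with median log2 ratios of 1.02, 0.44, 1.02 and 0.88 on arrays 1 to 4. Their summed signal was 535800 to 628000 in mutant pools, against 264300 to 317300 in control pools, and all 10 were above background in every pool. Most of that sum came from Ldha, Slc2a1 and Pgk1, whose mean log2 intensities were above 16. Genes that bright had median log2 ratios of 0.27 to 0.43 on the 4 arrays. The other genes of the list were dimmer. Without array 2, 7 of 10 rose, against 0.686% of all genes, among them Ldha, a glycolytic enzyme (adjusted p = 0.0262, limma), which also had the lowest adjusted p of the list on 4 arrays, 0.0949. On array 2 that list stayed positive, unlike Igfbp3. Its part in the Igfbp3 ratio was not tested.

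The 6 AVC myocardium markers had median log2 ratios of -0.46, 0.23, -0.27 and -0.14 on arrays 1 to 4, with signs like those of Igfbp5, but the list was mixed, with 3 of 6 means above 0. Tbx2, a T-box repressor of the AVC, had log2 ratios of 0.02, 0.55, 0.15 and 0.40, Tbx20 had -0.40, 0.25, 0.15 and 0.09, and Hcn4, a pacemaker channel gene, had -0.08, 0.08, -0.02 and 0.12. The summed signal of the 6 was 15290, 22950, 20160 and 20890 in mutant pools, against 19990, 18630, 20890 and 20980 in control pools, and all 6 were above background in every pool. Bmp2 had -0.51, 0.48, -0.52 and -0.37, with the signs of Igfbp5 on each array, and Rspo3 had -1.11, -0.35, -0.81 and -0.37. Array 2 was opposite in sign for 46.5% of the 8886 genes on which arrays 1, 3 and 4 shared a sign. Msx2, a homeobox gene of the AVC, had -0.60, 0.21, -0.64 and -0.51. It was the member that fell without array 2 (adjusted p = 0.0425, limma, against 0.357 on 4 arrays). The part of this list in the Igfbp5 ratio was not tested.

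Among the genes whose 4 ratios lay closest to those of Igfbp5 by Euclidean distance over the 4 arrays, of 19081 genes, were Slitrk5 at 0.058, Msx2 at 0.117, Marcksl1 at 0.188 and Ykt6 at 0.189. The median gene lay at 1.15. Ykt6 encodes a SNARE protein of vesicle fusion. Those closest to Igfbp3 were H2-Q8 at 0.467, P4ha2 at 0.492, Gdap10 at 0.538, Rarres2 at 0.546 and Tmem45a at 0.565, with a median gene at 2.13. P4ha2 encodes a collagen prolyl hydroxylase subunit and had log2 ratios of 0.91, -0.51, 1.26 and 0.87, while H2-Q8, a class I histocompatibility gene, had 0.77, -1.20, 0.98 and 0.76. The nearest of so many genes are close by the way they are picked. The distances also use the ratios that the family was chosen by, so nothing is read from them.

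Other genes of the pathway were followed in 6 lists of 61 genes, of which 56 were tested. On 4 arrays 0 of 56 passed (limma, lowest adjusted p = 0.143), against 0.00524% of all genes, and 11 had an unadjusted p under 0.05, against 14.5% of all genes. Without array 2, 2 of 56 rose and 0 fell, which is 3.57% against 1.02% of all genes. The median log2 ratio of the 56 was -0.03 on 4 arrays and -0.05 without array 2. Both genes that rose encode stanniocalcins, secreted inhibitors of the IGFBP proteases PAPP-A and PAPP-A2.

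Stc2 had log2 levels of 10.12, 8.19, 9.63 and 9.09 in mutant pools, against 7.90, 8.90, 7.96 and 7.91 in control pools. Its log2 ratios were 2.22, -0.70, 1.67 and 1.17, so it shared the signs of Igfbp3 on each array, array 2 included. An opposite sign on array 2 was found for 46.5% of the 8886 genes whose sign the other 3 arrays shared. The Stc2 mean was 1.09 ± 1.27 (SD, n = 4; limma adjusted p = 0.375) and 1.69 ± 0.52 without array 2 (n = 3; limma adjusted p = 0.0474), or 3.22-fold. Stc1 had log2 levels of 7.57, 6.89, 7.57 and 7.34 in mutant pools, against 6.97, 6.63, 6.94 and 6.86 in control pools, and was higher in 4 of 4 pairs. Its log2 ratios were 0.61, 0.26, 0.63 and 0.48, with a mean of 0.49 ± 0.17 (SD, n = 4; limma adjusted p = 0.143) and of 0.57 ± 0.08 without array 2 (n = 3; limma adjusted p = 0.0451). Without array 2, both calls were lost with the processed signals, with the running median removed and with probes averaged, where limma's adjusted p lay between 0.0537 and 0.14.

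The remaining lists held no gene past the threshold with or without array 2, and the genes named from them are given by their means over 4 arrays. Among receptors and adaptors, 10 genes tested had a median log2 ratio of 0.01, and the brightest were Grb10, Irs1 and Grb2. Irs1, the docking protein below the IGF1 and insulin receptors, had log2 ratios of 0.12, 0.02, 0.37 and 0.42 (mean 0.23 ± 0.19, SD, n = 4; limma adjusted p = 0.336). Grb10, an imprinted adaptor that restrains these receptors, averaged -0.03 ± 0.21 and Grb2, an adaptor to Ras signalling, -0.13 ± 0.05. The 18 genes from PI3K to mTOR also had a median of 0.01 and all lay between -0.22 and 0.22. Their brightest members were Rheb, an activator of mTOR, at -0.03 ± 0.16, the kinase Akt1 at -0.06 ± 0.11, and Eif4ebp1, a translation repressor that mTOR inhibits, at 0.13 ± 0.32.

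Extracellular partners and proteases, 13 tested, ranged from -0.45 to 1.09 with a median of -0.14. The metalloprotease Mmp14, the lysosomal protease Ctsd and the IGFBP protease Htra1 had log2 ratios of -0.31 ± 0.17, -0.27 ± 0.12 and -0.44 ± 0.41 (SD, n = 4), all negative in 4 of 4 pairs and none past the threshold (adjusted p = 0.221, 0.211 and 0.312, limma). Igfbp1, the neighbour of Igfbp3 on chromosome 11, was dim and had log2 ratios of 1.75, 0.44, 0.55 and -0.20.

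The 3 IGF2 mRNA-binding proteins averaged -0.10 ± 0.17 (Igf2bp1), -0.07 ± 0.15 (Igf2bp2) and -0.24 ± 0.21 (Igf2bp3). Among the 10 imprinted growth genes, with a median of 0.01, the brightest were Mest at 0.39 ± 0.23, H19 at 0.22 ± 0.50 and the cell cycle inhibitor Cdkn1c at 0.30 ± 0.24. These are bright genes too, and their means were 0.07, 0.03 and 0.06 with the processed signals and -0.04, 0.00 and 0.11 with the running median removed. H19, the non-coding RNA that shares an imprinting control region with Igf2, had log2 ratios of 0.10, 0.94, 0.02 and -0.19. Ins2, next to Igf2 on chromosome 7, had -0.34, 0.63, -0.11 and -0.29, and the insulin-degrading enzyme Ide averaged -0.02 ± 0.41.

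**Figure D4:**
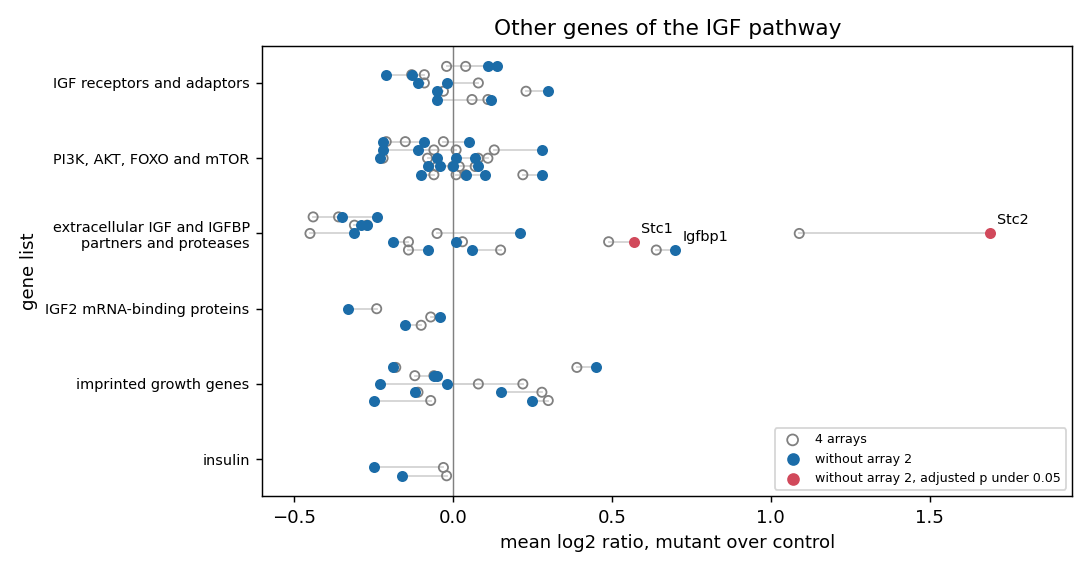
Mean log2 ratio of mutant over control (x axis) for the 56 tested genes of 6 IGF pathway lists (rows), as open circles over 4 arrays and filled circles without array 2, joined by a line for each gene. Stc2 at 1.69 and Stc1 at 0.57, in red, are the genes past an adjusted p of 0.05 without array 2.

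A search of the 250 bases before each RefSeq start of the 10 genes (GRCm38.p6) was made for the T-box core GGTGTGA on both strands. It was in none of them, and 3.33% of 32851 promoters hold it. The search says only that these letters are not in this window. The core ACGTG of hypoxia response elements, on both strands, was before the starts of Igf2r and Igfbp7, 1 of 2 starts of Igfbp2 and 1 of 4 starts of Igf2, and before none of the starts of the other 6 genes. It is in 16.6% of promoters. A match is a description of the letters, not a site.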

How the data were processed

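RNA from 4 mutant and 4 control pools was hybridised in pairs to 4 two-colour arrays of 60-base probes. Agilent Feature Extraction 9.5.1 wrote the files the authors deposited, per the submitters' processing notes. The main analysis started from the deposited intensity of each spot (mean of its pixels) and its local background median. A second deposited intensity, the processed signal, had its background subtracted and its dyes balanced by that software, per the file headers. The log10 ratio in the deposited files is red (mutant) over green (control), and the deposited series table repeats it to within 5e-07, with column medians of 0. Flags for spots above background, saturated or non-uniform are the deposited ones. Positions are those of mm7, per the file headers.

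Intensities were corrected with normexp (offset 50) and normalised by loess (span 0.3, control spots at weight 0) in limma 3.58.1 with R 4.3.3. Non-uniform spots were dropped, spots of a probe averaged, and probes kept if either channel was well above background on 3 or more arrays (28794 of 41174). The brightest probe stood for its gene, giving 19093 genes. Levels are log2 intensities after Aquantile scaling between arrays. Median spot signals were 175.1 to 232.5 in mutant and 117.9 to 133.5 in control channels; the 4 arrays limit the precision. Each log2 ratio was compared with 0 by limma's moderated test (2-sided), adjusted by Benjamini-Hochberg over all genes with a threshold of 0.05. The test was also run on simulated ratios with independent normal noise of equal spread on the 4 arrays. That run held no divergent array, brightness shift or dye effect, so it does not bear on these. Symbols outside the family were updated through a RefSeq gene table, 23082 probes by accession, 6582 by symbol and 3071 by synonym, while 8439 retained their original name.

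Members, lists and markers were chosen with earlier results of these data known. Besides the members and markers, the text names pathway genes past the threshold with or without array 2, the 3 brightest of each list, and the 5 genes nearest to Igfbp3 and to Igfbp5, of which 1 is not reported here. Genes named outside that rule (Igfbp1, Dio3, Ly6c1, Penk) were chosen after their values were seen. Alternatives covered background correction, normalisation, filters, probe choice, array weights, variance trend and each array left out.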

Additional observations from a re-analysis of the deposited data

Results flagged for a closer look

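Of 49 groups of 4 values tested for a sample far from the others (ratios, mutant levels and control levels of the 10 members, and ratios of the named pathway genes), 7 had one, and all 7 were on array 2. Chance alone flags about 5% of groups, but these values share an array, and the Igfbp3 and Igfbp5 ratios on the other 3 arrays are what the family was chosen by, so the number is not to be read against that rate.

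The log2 ratio on array 2 lay far from the other 3 for Igf1 (-0.66, against -0.05 to 0.03), Igfbp3 (-0.99, against 0.93 to 1.29), Igfbp5 (0.29, against -0.66 to -0.54) and Igfbp7 (-1.54, against -0.26 to -0.09). The Igf1r level in mutant pool 2 was 11.43, against 11.14 to 11.16 in the other mutant pools. The Igfbp6 level was 11.49 in mutant pool 2, against 6.74 to 7.08 in the other mutant pools, and 13.27 in control pool 2, against 6.70 to 6.81 in the other control pools.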

How the results depend on the processing

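With 4 arrays, 1 gene, Tbx3, passed the threshold. Its log2 ratio stayed negative (-1.39 to -0.74) with every background correction, normalisation, filter, probe rule, weighting and left-out array tried, but its call was lost with processed signals (limma adjusted p = 0.0547), an offset of 16 (0.0668), averaged probes (0.12) and without array 1, 3 or 4 (0.347, 0.603 and 0.51). That count was 3 with processed signals, 7773 with median centring (7203 higher and 570 lower), 1574 with array weights, and 0 both with an offset of 16 and with probes averaged (2685 and 2540 at an unadjusted p under 0.05). Leaving out an array gave 0 to 194 genes, and settings chosen after seeing the data, without array 2, gave 79 with the running median removed, 3 with processed signals, 102 with probes averaged and 8454 with median centring (7737 higher and 717 lower). Of the family, 0 members passed, but 3 with median centring (Igf2, Igf1r and Igf2r), 3 with array weights (Igf2, Igfbp3 and Igfbp5), 0 to 2 when an array was left out, and, without array 2, 2 with the running median removed, 6 with median centring, and 0 with processed signals or averaged probes. Of the pathway genes, 0 passed, but 23 with median centring, 8 with array weights, 0 to 2 when an array was left out, and 27 with median centring without array 2. Median centring subtracts the same value from every probe of an array, and the median of all genes was then 0.228, or 0.201 without array 2. Array weights gave array 2 a weight of 0.293, against 0.731 to 2.20 for the others. Causes of these changes were not tested. The test is itself paired, since each ratio sets 1 mutant pool against 1 control pool of the same array, and no further replicate block could be added. Dim probes, such as the second Igfbp3 probe, limit what small ratios can show, and unswapped dyes limit all ratios.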
